A study of Homo sapiens with 6 samples.

Results

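The type I interferon response genes described here are 50 human genes, chosen by name as a list of RNA sensors, receptors, transcription factors, modifying enzymes and antiviral effectors, out of 23368 gene symbols with RNA-seq counts. The cells were MDA-MB231, a long-used human cell line from a triple-negative breast carcinoma, in 3 groups of 2 libraries. The siL1 and siL2 groups received one of 2 siRNAs against KDM1A, the gene of the histone demethylase LSD1, and the siControl group received a control siRNA. All 3 groups, siControl included, were transfected with the same reagent and grown in medium with serum, and none was labelled as treated with interferon. Nothing in the labels tells separate cultures from repeat preparations among the replicates, and the p-values below therefore reflect library-to-library spread alone, which may be technical.

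Type I interferons are secreted proteins that cells make after sensing foreign nucleic acid, and they act on neighbouring cells and on the cell that made them. They bind the receptor formed by IFNAR1 and IFNAR2, whose kinases TYK2 and JAK1 phosphorylate STAT proteins. A complex that holds STAT2 and IRF9 then binds the interferon-stimulated response element (ISRE) in gene promoters and switches on interferon-stimulated genes. Many carcinoma lines hold a low, steady level of these transcripts without added interferon, and LSD1 has been studied as a repressor of this program in tumour cells.

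The libraries held 22047738 to 26765079 counts. Levels are given as CPM, each count scaled to its library's total, and 3 counts, the most that a count of 0 allows, were worth 0.112 to 0.136 CPM, which covers counting error only. Changes are log2 fold changes from edgeR's quasi-likelihood test, two-sided, called at a Benjamini-Hochberg adjusted p under 0.05 across 13322 tested genes. KDM1A, the targeted gene, stood at 27.7 and 28.1 CPM with siL1, at 17.4 and 18.1 CPM with siL2, and at 158 and 165 CPM with siControl. The log2 change was −2.53 ± 0.0538 (SE) for siL1 and −3.19 ± 0.0567 for siL2 (adjusted p = 1.09e-11 and 2.16e-12), and the siL1 level was higher than the siL2 level by 0.66 on the log2 scale (adjusted p = 4.36e-06). CD44 and VIM, which mark this mesenchymal-like line, reached 541 CPM or more in every library, CDH1, ESR1 and PGR stayed at or below 0.112 CPM, and ERBB3 lay between 1.74 and 3.87 CPM. With siL1 against siControl, the log2 change was −0.36 for CD44 and −0.09 for VIM (adjusted p = 2.59e-06 and 0.0368). Neither passed the test with siL2. All 10 leukocyte markers examined were too low to be tested, with a summed level of 0.511 to 0.649 CPM with siL1, 0.448 to 0.609 CPM with siL2 and 0.381 to 0.408 CPM with siControl. Of these, MS4A1, IL3RA and CLEC4C were at 0 in all 6 libraries.

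Of the 50 members, 43 passed the filter on low counts. Against siControl, 19 were higher and 4 lower with siL1, and 18 were higher and 4 lower with siL2. The background was high: with siL1 50.4% of all tested genes were called, 24.7% higher and 25.7% lower, and with siL2 45.8% were called, 22.6% higher and 23.3% lower. The share of tested members called in either direction was 53.5% with siL1 and 51.2% with siL2, close to those backgrounds. The called members were mostly higher: 44.2% of the tested members were higher and 9.30% lower with siL1, and 41.9% higher and 9.30% lower with siL2. Their median log2 fold change was 0.36 with siL1 and 0.24 with siL2, against −0.01 and −0.0036 over all tested genes. The comparisons share the siControl libraries. In these bulk samples, a change in the number of cells that hold a transcript and a change in the amount per cell cannot be told apart.

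The changes were small. With siL1, 3 members (XAF1, ISG20 and MX1) rose at least 2-fold, where 3.75% of all tested genes did, and with siL2, 5 members (IFI44L, ISG20, GBP2, SAMD9L and SAMD9) did, where 2.15% of all tested genes did. Summed over all 50 members, the level was 1559 and 1580 CPM with siL1, 1535 and 1530 CPM with siL2, and 1362 and 1397 CPM with siControl. Abundant genes such as LGALS3BP and IFITM3 weigh most in this sum. The mean log2 of CPM plus 1 over the tested members was 3.85 and 3.86 with siL1. It was 3.87 and 3.88 with siL2, and 3.64 and 3.71 with siControl. When each library was left out in turn, 13 of the 23 siL1 calls and 13 of the 22 siL2 calls on members were kept. The plot of all tested members by role shows most of the filled points right of 0 among the effectors and a mixture elsewhere.

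**Figure D1:**
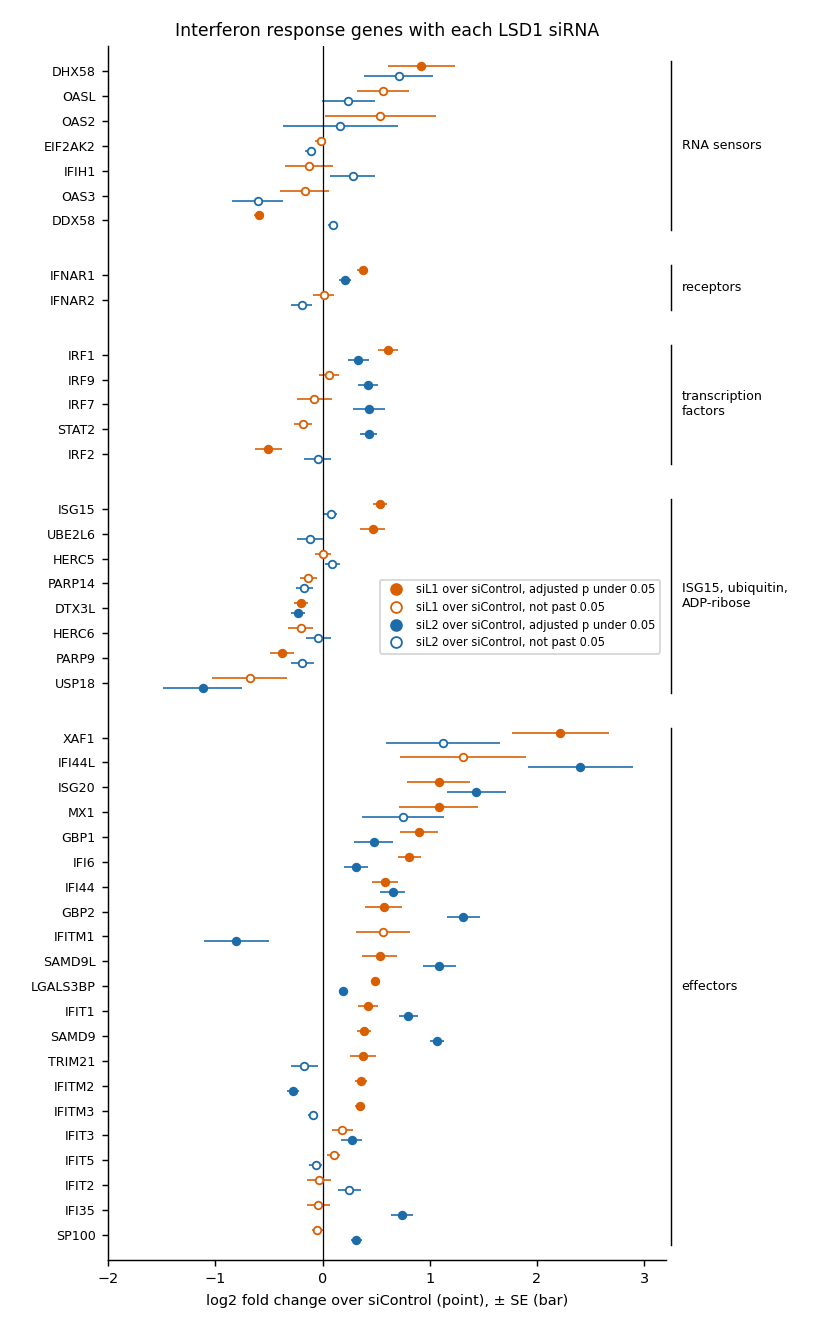
The log2 fold change over siControl (horizontal axis) is plotted for each of the 43 tested members, grouped by role, with siL1 in orange and siL2 in blue. Points are edgeR estimates, bars are ± 1 SE, and filled points passed an adjusted p of 0.05. Effectors include 14 higher with siL1 and 13 with siL2, while USP18 and IFITM1 lie left of 0 with siL2.

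Interferon-stimulated genes are known for the ISRE in their promoters. The members were chosen by name from that class, so a high share with the element follows in part from the choice. In RefSeq (GRCh38.p14), 38 of the 50 members had a promoter, taken as 250 bases before to 50 bases after an annotated start. Where a symbol had several promoters, the one with the motif match nearest its start was kept. This was done for each motif separately, for members and all symbols alike. An ISRE core, searched on both strands as GAAA, any 2 bases and GAAA again, stood in 25 of these 38 promoters (65.8%), against 4.38% of 27305 symbols with a promoter. The windows of 60 bases below are read on the gene's own strand, 5′ to 3′, with the match in capitals. IFIT1 and SAMD9 are shown since they rose with both siRNAs, ISG15 and MX1 since they rose with siL1, and PARP9 and DTX3L since they are lower and share 1 element.
IFIT1 (chr10:89392495-89392554, plus strand): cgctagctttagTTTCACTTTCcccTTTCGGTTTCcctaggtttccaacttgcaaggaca
SAMD9 (chr7:93118081-93118140, minus strand): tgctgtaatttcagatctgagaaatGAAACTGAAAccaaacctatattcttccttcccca
ISG15 (chr1:1013365-1013424, plus strand): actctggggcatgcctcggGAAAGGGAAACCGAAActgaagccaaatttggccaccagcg
MX1 (chr21:41420544-41420603, plus strand): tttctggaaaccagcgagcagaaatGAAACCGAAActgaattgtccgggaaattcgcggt
PARP9 (chr3:122564307-122564366, minus strand): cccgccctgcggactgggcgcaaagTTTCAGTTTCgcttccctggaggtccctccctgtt
DTX3L (chr3:122564307-122564366, plus strand): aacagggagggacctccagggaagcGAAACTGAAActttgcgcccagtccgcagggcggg

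IFIT1 carries 2 matches in its window, both on the strand opposite the gene, and ISG15 carries 2 overlapping ones. PARP9 and DTX3L are transcribed away from each other, and the same 60 bases of chromosome 3 lie in both promoters. Members that rose and members that did not pass the test both held it. With siL1, 11 of the 16 risen members with a promoter held it (68.8%), and 9 of the 14 that did not pass the test did (64.3%). With siL2, 9 of 16 risen members held it (56.2%), and 11 of 15 that did not pass the test (73.3%). The promoters of STAT2, IRF1, IRF9, IFI35, XAF1, DDX58, IFNAR1, SAMD9L, UBE2L6, SP100, HERC6, OAS1 and CMPK2 held no match in this stretch. The gamma-activated site (GAS), searched as TTCNNNGAA, stood in 9 of the 38 member promoters (23.7%), against 9.38% of all symbols. A match is a description of letters and not evidence of binding.

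The first step of the pathway was close to silent at the RNA level. Of 9 interferon ligand genes in the table (IFNA1, IFNA2, IFNB1, IFNE, IFNK, IFNW1, IL28A, IL28B and IL29), 8 had 0 counts in all 6 libraries, which allows up to 0.136 CPM in each, and IL29 had 1 count in 1 library. Several of the most strongly inducible interferon-stimulated genes were also at or near 0. OAS1, MX2, RSAD2 (viperin), BST2 (tetherin), TRIM22, CMPK2 and IFI27 are the 7 members that did not pass the filter: CMPK2 was at 0 in all libraries, and none of the others exceeded 6 counts, or 0.224 CPM, in any library. Differences at that level were not detectable at this depth.

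Among the 8 RNA sensors and RNA-activated enzymes, 7 were tested, and 1 rose and 1 fell with siL1 (14.3% each). The shares over all tested genes were 24.7% and 25.7%. DDX58, which encodes RIG-I, the helicase that senses viral RNA ends, had 93.1 and 86.5 CPM with siL1, 150 and 141 CPM with siL2, and 134 and 137 CPM with siControl. Both siL1 libraries lay below all 4 others. Against siControl this was a log2 fold change of −0.59 ± 0.0488 (SE) for siL1 (adjusted p = 7.53e-07) and 0.10 ± 0.0472 for siL2 (adjusted p = 0.118, or 0.0199 under a replicate block, a fit with the replicate number as a further term), and siL1 over siL2 was −0.69 ± 0.0483 (adjusted p = 2.26e-07). These siL1 calls were kept under all 14 alternative settings.

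DHX58, which encodes LGP2, a relative of RIG-I without its signalling domains, had 1.06 and 1.18 CPM with siL1, 0.897 and 1.06 CPM with siL2, and 0.499 and 0.677 CPM with siControl. All LSD1 siRNA libraries were above both siControl libraries. On the log2 scale the change was 0.92 ± 0.316 for siL1 (adjusted p = 0.0272) and 0.71 ± 0.322 for siL2 (adjusted p = 0.0895), from 11 to 29 counts a library. The siL1 call ended without siL1 replicate 1, siL1 replicate 2 or siControl replicate 1 (adjusted p = 0.0537, 0.112 and 0.156), and by DESeq2, another count model (adjusted p = 0.186). The other 5, IFIH1 (MDA5, the sensor of long double-stranded RNA), EIF2AK2 (the RNA-dependent kinase PKR) and OAS2, OAS3 and OASL of the oligoadenylate synthetase family, did not pass the test in any comparison of the fit of all 6 libraries without a block, although 4 of them passed under other settings. OASL, whose siControl libraries stood at 3.04 and 5.46 CPM, had 0.56 ± 0.241 with siL1 (adjusted p = 0.0682), and passed without siControl replicate 2 (1.06, adjusted p = 0.00553), siL1 replicate 1, siL2 replicate 1 or siL2 replicate 2 (adjusted p = 0.0417, 0.0366 and 0.0344). It also passed under a replicate block (adjusted p = 0.000302), with no filter (adjusted p = 0.00731) and with only those groups fitted (adjusted p = 0.0288), and in siL1 over siL2 with the block (0.31, adjusted p = 0.0378). Its siL2 value, 0.24 ± 0.247 (adjusted p = 0.455), was 0.73 without siControl replicate 2 (adjusted p = 0.0445). OAS3 had −0.61 ± 0.236 with siL2 (adjusted p = 0.0513), and passed without siL1 replicate 1, siL1 replicate 2 or siL2 replicate 1 (adjusted p = 0.0461, 0.0467 and 0.0454), with the block (adjusted p = 0.0194), with no filter (adjusted p = 0.0289) or with only those groups fitted (adjusted p = 0.0468). IFIH1 passed in siL1 over siL2 without siL2 replicate 1 (−0.65, adjusted p = 0.0313) and with the block (−0.41, adjusted p = 0.0396). EIF2AK2 was measured closely, at 63 to 69.3 CPM over the 6 libraries, with log2 fold changes of −0.02 ± 0.0499 for siL1 and −0.11 ± 0.0499 for siL2, of which the siL2 value passed with the block (adjusted p = 0.0247).

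Of the receptor chains, IFNAR1 was higher with each siRNA and IFNAR2 did not pass the test against siControl. IFNAR1 stood at 71.4 and 75.7 CPM with siL1, 67.4 and 64.7 CPM with siL2, and 56.5 and 57.5 CPM with siControl. The 3 groups did not overlap, and siL1 was above siL2. Relative to siControl, the log2 fold change was 0.37 ± 0.0542 for siL1 (adjusted p = 9.2e-05) and 0.21 ± 0.0544 for siL2 (adjusted p = 0.00666), and siL1 over siL2 was 0.16 (adjusted p = 0.0225). The siL2 call ended without siL2 replicate 1 (adjusted p = 0.052), and the call between the siRNAs ended without siL1 replicate 2 or siL2 replicate 2 (adjusted p = 0.185 and 0.134) and by DESeq2 (adjusted p = 0.0698). IFNAR2 had 13.8 and 12.4 CPM with siL1, 11.7 and 11.2 CPM with siL2, and 12.7 and 13.4 CPM with siControl. The siL1 and siControl ranges overlapped, and the log2 fold change was 0.01 ± 0.0979 for siL1 and −0.19 ± 0.0988 for siL2 (adjusted p = 0.944 and 0.128). Under a replicate block, IFNAR2 passed in siL1 over siL2 (0.20, adjusted p = 0.0489).

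The transcription factors differed between the siRNAs: all 5 passed the test of siL1 over siL2, 1 higher and 4 lower with siL1, where 46.8% of all tested genes differed, 23.7% higher and 23.2% lower. The calls of IRF1, IRF2, IRF7 and IRF9 in this comparison depended on single libraries, as given below. Against siControl, 1 rose and 1 fell with siL1 (20% each, where 24.7% and 25.7% of all tested genes did), and 4 rose with siL2 (80%, where 22.6% did). Summed, the 5 gave 78.8 and 75.5 CPM with siL1, 98.9 and 95.8 CPM with siL2, and 79.9 and 76.9 CPM with siControl. The plot of CPM by library shows 3 of them beside other members.

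STAT2 and IRF9 are parts of the complex that binds the ISRE. STAT2 had 24.1 and 21.4 CPM with siL1, 36.3 and 33.6 CPM with siL2, and 27.3 and 24.5 CPM with siControl. Both siL2 libraries were above all 4 others. In log2 terms the change was −0.18 ± 0.0848 for siL1 (adjusted p = 0.0931, or 0.0145 under a replicate block) and 0.43 ± 0.0804 for siL2 (adjusted p = 0.000729), and siL1 over siL2 was −0.61 ± 0.0811 (adjusted p = 5.18e-05).

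IRF9 had 14.7 and 16.5 CPM with siL1, 19.9 and 20.7 CPM with siL2, and 15.6 and 14.5 CPM with siControl. It too was highest in both siL2 libraries, with siL1 and siControl overlapping. This gave a log2 fold change of 0.06 ± 0.0951 for siL1 (adjusted p = 0.635) and 0.43 ± 0.0916 for siL2 (adjusted p = 0.00202), and siL1 over siL2 was −0.37 (adjusted p = 0.00494, or 0.057 without siL1 replicate 1).

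IRF7, the factor that amplifies interferon production, had 3.83 and 4.71 CPM with siL1, 6.2 and 6.05 CPM with siL2, and 4.13 and 4.91 CPM with siControl. The siL2 libraries were the highest. As a log2 fold change this was −0.08 ± 0.162 for siL1 (adjusted p = 0.715) and 0.43 ± 0.152 for siL2 (adjusted p = 0.0333), and siL1 over siL2 was −0.51 (adjusted p = 0.0145). The siL2 call ended without siL2 replicate 1, siL2 replicate 2 or siControl replicate 1 (adjusted p = 0.104, 0.0719 and 0.197), and the call between the siRNAs without siL1 replicate 1 or siL2 replicate 1 (adjusted p = 0.129 and 0.0522). By DESeq2 neither passed (adjusted p = 0.145 and 0.0813).

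IRF1, an activator of many of the same genes, had the other order: 20.5 and 21.6 CPM with siL1, 16.8 and 18.1 CPM with siL2, and 12.7 and 14.9 CPM with siControl. No group overlapped another. Compared with siControl, its log2 fold change was 0.61 ± 0.0961 for siL1 (adjusted p = 0.000177) and 0.33 ± 0.0975 for siL2 (adjusted p = 0.0138), and siL1 over siL2 was 0.28 (adjusted p = 0.0241). The siL2 call ended without siL2 replicate 2 or siControl replicate 1 (adjusted p = 0.0829 and 0.13), and the call between the siRNAs without siL1 replicate 2 or siL2 replicate 1 (adjusted p = 0.137 and 0.147) and by DESeq2 (adjusted p = 0.0841).

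IRF2, known as a competitor of IRF1, had 15.6 and 11.3 CPM with siL1, 19.7 and 17.3 CPM with siL2, and 20.1 and 18.1 CPM with siControl. The siL1 libraries were the lowest but lay far apart. It fell with siL1 by a log2 fold change of −0.50 ± 0.13 (adjusted p = 0.00599), a call that ended without siL1 replicate 2 (−0.29, adjusted p = 0.0768). With siL2 the value was −0.05 ± 0.124 (adjusted p = 0.793). The difference of siL1 over siL2, −0.46 (adjusted p = 0.0106), passed neither without siL1 replicate 2 nor without siL2 replicate 1 (adjusted p = 0.134 and 0.0618).

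**Figure D2:**
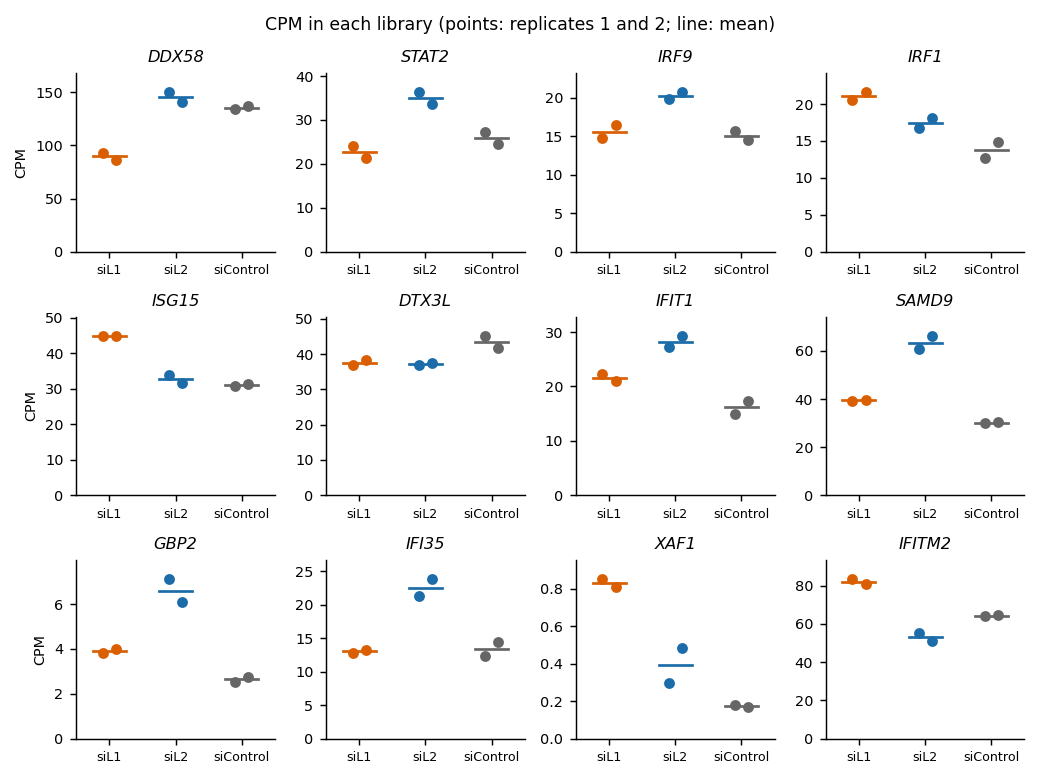
The level in CPM (vertical axis, from 0) of 12 members is plotted in each library, with siL1 in orange, siL2 in blue and siControl in grey. Points are the 2 replicate libraries and lines their mean. DDX58 is lowest with siL1, STAT2, IRF9 and IFI35 are highest with siL2, ISG15 is highest with siL1, and SAMD9 and IFIT1 are above siControl in all 4 LSD1 siRNA libraries.

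ISG15 and the enzymes that attach and remove it, with the ADP-ribose enzymes, were divided: 2 of 8 rose and 2 fell with siL1, and 2 fell with siL2. Each of these counts was 25%, where 24.7% of all tested genes rose and 25.7% fell with siL1, and 23.3% fell with siL2. ISG15, a ubiquitin-like protein that is joined to other proteins and also secreted, had 44.9 and 44.7 CPM with siL1, 33.9 and 31.6 CPM with siL2, and 30.8 and 31.2 CPM with siControl. Both siL1 libraries stood above all others. edgeR gave a log2 fold change of 0.54 ± 0.0625 for siL1 (adjusted p = 1.53e-05) and 0.08 ± 0.064 for siL2 (adjusted p = 0.362), and siL1 over siL2 was 0.46 (adjusted p = 5.48e-05).

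UBE2L6, the enzyme that carries ISG15 to its targets, had 12.4 and 10.5 CPM with siL1, 7.4 and 7.96 CPM with siL2, and 8.66 and 7.96 CPM with siControl. It was likewise highest in both siL1 libraries. The log2 fold change was 0.47 ± 0.119 for siL1 (adjusted p = 0.00537, or 0.0628 without siL1 replicate 1) and −0.12 ± 0.125 for siL2 (adjusted p = 0.466), and siL1 over siL2 was 0.59 (adjusted p = 0.00128). HERC5, the main human ligase for ISG15, stayed at 22 to 24.2 CPM over the 6 libraries and passed no test.

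USP18, which removes ISG15 and dampens receptor signalling, was low, at 0.638 and 0.933 CPM with siL1, 0.785 and 0.365 CPM with siL2, and 1.09 and 1.44 CPM with siControl. All 4 LSD1 siRNA libraries were below both siControl libraries. The log2 change was −0.68 ± 0.349 for siL1 (adjusted p = 0.126) and −1.12 ± 0.367 for siL2 (adjusted p = 0.0242). The siL2 call ended without siL2 replicate 2 or siControl replicate 2 (adjusted p = 0.171 and 0.157), and by DESeq2 (adjusted p = 0.125).

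DTX3L and PARP9 encode a ubiquitin ligase and its ADP-ribosyltransferase partner, transcribed from the shared promoter printed above. DTX3L had 36.8 and 38.3 CPM with siL1, 36.9 and 37.4 CPM with siL2, and 45.2 and 41.6 CPM with siControl. PARP9 had 7.53 and 7.95 CPM with siL1, 8.97 and 8.81 CPM with siL2, and 10.3 and 9.95 CPM with siControl. For both genes every LSD1 siRNA library was below both siControl libraries.

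DTX3L changed by −0.20 ± 0.0643 on the log2 scale with siL1 (adjusted p = 0.0186) and by −0.23 ± 0.064 with siL2 (adjusted p = 0.0106), and PARP9 by −0.38 ± 0.109 with siL1 (adjusted p = 0.0113) and −0.19 ± 0.106 with siL2 (adjusted p = 0.168). All 3 of these calls ended when 1 library was left out. Without siL1 replicate 1 or siControl replicate 1, the siL1 adjusted p was 0.109 and 0.152 for DTX3L, and 0.0702 and 0.0548 for PARP9, and by DESeq2 it was 0.0834 and 0.0853. Without siL2 replicate 1 or siControl replicate 1, the siL2 adjusted p of DTX3L was 0.0553 and 0.105. HERC6, a relative of HERC5, and PARP14, another ADP-ribosyltransferase, passed no test, although PARP14 was lower with siL2 without siL2 replicate 1 (−0.26, adjusted p = 0.0369) and under a replicate block (−0.17, adjusted p = 0.0153).

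The effectors, which act directly on viral or cellular RNA, membranes and proteins, held most of the higher members. Of 27, 21 were tested: 14 rose with siL1 (66.7%), and 13 rose and 2 fell with siL2 (61.9% and 9.52%). Over all tested genes, 24.7% rose with siL1, and 22.6% rose and 23.3% fell with siL2. The summed level of all 27 effectors was 1064 and 1089 CPM with siL1, 985 and 998 CPM with siL2, and 842 and 882 CPM with siControl. Abundant genes such as LGALS3BP and IFITM3 weigh most in this sum. The mean log2 of CPM plus 1 takes the 21 tested effectors alike. It was 4.06 and 4.04 with siL1, 4.04 and 4.07 with siL2, and 3.65 and 3.73 with siControl. Between the siRNAs, 16 of the 21 differed (76.2%), 9 higher and 7 lower with siL1, where 46.8% of all tested genes differed.

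SAMD9, SAMD9L and GBP2 were higher with siL2 than with siL1, while GBP1 was lower with siL2 than with siL1. SAMD9, a restriction factor for poxviruses, had 39.3 and 39.6 CPM with siL1, 60.7 and 66.2 CPM with siL2, and 30.1 and 30.3 CPM with siControl. The 3 groups were well apart, with siL2 the highest. Against siControl this was a log2 fold change of 0.39 ± 0.0663 for siL1 (adjusted p = 0.00033) and 1.07 ± 0.0634 for siL2 (adjusted p = 4.65e-08), and siL1 over siL2 was −0.68 (adjusted p = 2.12e-06). All 3 calls were kept under the 14 alternatives.

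SAMD9L, its paralog on the same chromosome, followed that order at a lower count. It had 3.66 and 3.98 CPM with siL1, 5.72 and 5.6 CPM with siL2, and 2.59 and 2.71 CPM with siControl. On the log2 scale the change was 0.53 ± 0.164 for siL1 (adjusted p = 0.0165) and 1.09 ± 0.153 for siL2 (adjusted p = 8.01e-05), and siL1 over siL2 was −0.56 (adjusted p = 0.00581). No group overlapped another. The siL1 call ended without siL1 replicate 2, siControl replicate 1 or siControl replicate 2 (adjusted p = 0.0953, 0.0769 and 0.055). By DESeq2, neither the siL1 call nor the difference between the siRNAs passed (adjusted p = 0.103 and 0.0694).

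GBP2, a GTPase that gathers on membranes around pathogens, had 3.83 and 4.02 CPM with siL1, 7.1 and 6.09 CPM with siL2, and 2.54 and 2.75 CPM with siControl. The siL2 libraries were again the highest. Relative to siControl, the log2 fold change was 0.57 ± 0.172 for siL1 (adjusted p = 0.0142) and 1.31 ± 0.156 for siL2 (adjusted p = 2.05e-05), and siL1 over siL2 was −0.74 (adjusted p = 0.000973). The siL1 call ended without siL1 replicate 2 or siControl replicate 1 (adjusted p = 0.0711 and 0.0756), and by DESeq2 (adjusted p = 0.0718).

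GBP1, from the same family, had the reverse order. It had 4.89 and 5.03 CPM with siL1, 4.07 and 3.37 CPM with siL2, and 2.36 and 2.96 CPM with siControl. All LSD1 siRNA libraries were above siControl. In log2 terms the change was 0.90 ± 0.175 for siL1 (adjusted p = 0.000891) and 0.48 ± 0.181 for siL2 (adjusted p = 0.0464), and siL1 over siL2 was 0.42 (adjusted p = 0.0473). The siL2 call ended without siL1 replicate 1 or 2, siL2 replicate 1 or siControl replicate 1 (adjusted p = 0.0578, 0.058, 0.275 and 0.261). The call between the siRNAs ended without siL1 replicate 1, siL1 replicate 2 or siL2 replicate 2 (adjusted p = 0.105, 0.159 and 0.253). DESeq2 gave neither of these calls (adjusted p = 0.18 for siL2 and 0.216 between the siRNAs), and the siL2 call also ended by limma-voom (adjusted p = 0.0589) and with only those groups fitted (adjusted p = 0.0595).

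The IFIT genes encode proteins that bind foreign RNA and lie together on chromosome 10. IFIT1 had 22.2 and 21 CPM with siL1, 27.2 and 29.3 CPM with siL2, and 15 and 17.3 CPM with siControl. The groups did not overlap. This gave a log2 fold change of 0.42 ± 0.0905 for siL1 (adjusted p = 0.00174) and 0.80 ± 0.0874 for siL2 (adjusted p = 9.86e-06), and siL1 over siL2 was −0.38 (adjusted p = 0.00248).

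The neighbouring IFIT genes moved less. IFIT3 rose with siL2 (0.27 ± 0.0958, adjusted p = 0.0345), a call that ended without siL2 replicate 2 or siControl replicate 1 (adjusted p = 0.149 and 0.294), and by DESeq2 (adjusted p = 0.185). With siL1 it had 0.18 ± 0.0968 (adjusted p = 0.132), which passed without siL1 replicate 1 or siControl replicate 2 (adjusted p = 0.0285 and 0.0176), under a replicate block (adjusted p = 0.000494) or with no filter (adjusted p = 0.0456). IFIT2 had log2 fold changes of −0.03 ± 0.114 with siL1 and 0.25 ± 0.111 with siL2, and IFIT5 had 0.10 ± 0.0622 and −0.06 ± 0.0624, none past the threshold. IFIT2 passed with siL2 without siL2 replicate 1 or siControl replicate 2 (adjusted p = 0.0194 and 0.0123), with the block (adjusted p = 6.61e-05) or with no filter (adjusted p = 0.0166). Its value of siL1 over siL2, −0.28 (adjusted p = 0.051), passed without siL1 replicate 2, siL2 replicate 1, siControl replicate 1 or siControl replicate 2 (adjusted p = 0.0294, 0.0109, 0.0225 and 0.0228), with the block (adjusted p = 7.48e-06), with no filter (adjusted p = 0.00437) or with only those groups fitted (adjusted p = 0.0217). IFIT5 differed between siL1 and siL2 by 0.17 (adjusted p = 0.0402), which did not pass without siL1 replicate 1, siL2 replicate 1 or siL2 replicate 2 (adjusted p = 0.342, 0.0548 and 0.19) or by DESeq2 (adjusted p = 0.098).

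ISG20, a nuclease of viral RNA, had 1.87 and 1.3 CPM with siL1, 1.94 and 2.11 CPM with siL2, and 0.771 and 0.72 CPM with siControl. All 4 LSD1 siRNA libraries were above both siControl libraries. As a log2 fold change this was 1.08 ± 0.292 for siL1 (adjusted p = 0.00771, or 0.0764 without siL1 replicate 1) and 1.43 ± 0.275 for siL2 (adjusted p = 0.000906). The difference of siL1 over siL2 was −0.35 ± 0.232 (adjusted p = 0.24).

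MX1, a GTPase that traps viral particles, rested on 8 to 25 counts a library. It had 0.936 and 1.01 CPM with siL1, 0.635 and 0.934 CPM with siL2, and 0.363 and 0.55 CPM with siControl. The LSD1 siRNA libraries were again all above siControl. Compared with siControl, its log2 fold change was 1.08 ± 0.366 for siL1 (adjusted p = 0.0255) and 0.75 ± 0.379 for siL2 (adjusted p = 0.125). The siL1 call ended without siL1 replicate 1, siL1 replicate 2 or siControl replicate 1 (adjusted p = 0.0558, 0.0965 and 0.154), and by DESeq2 (adjusted p = 0.16).

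XAF1, a pro-apoptotic partner of XIAP, had the highest log2 fold change of the tested members with siL1. It had 20 and 20 counts with siL1, 8 and 12 with siL2, and 4 and 4 with siControl, which is 0.851 and 0.811 CPM, 0.299 and 0.487 CPM, and 0.181 and 0.169 CPM. No group overlapped another. edgeR gave a log2 fold change of 2.22 ± 0.453 for siL1 (adjusted p = 0.00126) and 1.13 ± 0.53 for siL2 (adjusted p = 0.101). The value of siL1 over siL2 was 1.09 (adjusted p = 0.0264), a call that ended without siL1 replicate 1, siL1 replicate 2 or siL2 replicate 1 (adjusted p = 0.0853, 0.0733 and 0.199).

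IFI44 and IFI44L are related genes on chromosome 1. IFI44L had 9 and 7 counts with siL1, 20 and 17 with siL2, and 2 and 4 with siControl. The groups were apart, at 0.383 and 0.284 CPM, 0.747 and 0.69 CPM, and 0.0907 and 0.169 CPM. Its log2 fold change was 1.31 ± 0.589 for siL1 (adjusted p = 0.082, or 0.0482 by limma-voom) and 2.40 ± 0.489 for siL2 (adjusted p = 0.00138).

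The value of IFI44L in siL1 over siL2 was −1.09 (adjusted p = 0.0347), a call that ended without siL1 replicate 1, siL1 replicate 2, siL2 replicate 1 or siL2 replicate 2 (adjusted p = 0.063, 0.168, 0.123 and 0.0793), or with no filter (adjusted p = 0.0613). IFI44, at 18 and 19.1 CPM with siL1, 18.2 and 21.2 CPM with siL2, and 11 and 13.8 CPM with siControl, rose with both, and all 4 LSD1 siRNA libraries were above siControl. The log2 change was 0.58 ± 0.118 for siL1 (adjusted p = 0.00118) and 0.66 ± 0.116 for siL2 (adjusted p = 0.000507), and siL1 over siL2 was −0.07 (adjusted p = 0.61).

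The IFITM genes encode membrane proteins that block the entry of viruses, lie together on chromosome 11 and are near-identical in parts, so reads may have been divided between them in the counting. IFITM2 went in opposite directions. It had 83.2 and 81 CPM with siL1, 55.3 and 51.1 CPM with siL2, and 64 and 64.6 CPM with siControl. The siL1 libraries lay above, and the siL2 libraries below, both siControl libraries. Against siControl this was a log2 fold change of 0.36 ± 0.0526 for siL1 (adjusted p = 0.000103) and −0.28 ± 0.0541 for siL2 (adjusted p = 0.00104), and siL1 over siL2 was 0.63 ± 0.053 (adjusted p = 1.02e-06).

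IFITM3 had 226 and 228 CPM with siL1, 167 and 170 CPM with siL2, and 173 and 185 CPM with siControl. It was highest in both siL1 libraries. On the log2 scale the change was 0.35 ± 0.0424 for siL1 (adjusted p = 2.21e-05) and −0.09 ± 0.0428 for siL2 (adjusted p = 0.101, or 0.0379 without siControl replicate 1 and 0.0145 under a replicate block), and siL1 over siL2 was 0.44 (adjusted p = 3.79e-06). IFITM1 had 3.02 and 1.91 CPM with siL1, 0.934 and 0.974 CPM with siL2, and 1.86 and 1.48 CPM with siControl. Its 3 groups had the same order, with siL1 highest and siL2 lowest.

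The log2 fold change of IFITM1 was 0.56 ± 0.253 for siL1 (adjusted p = 0.0828, or 0.018 without siL1 replicate 2 and 0.0286 under a replicate block) and −0.81 ± 0.302 for siL2 (adjusted p = 0.044), and siL1 over siL2 was 1.37 ± 0.277 (adjusted p = 0.00133). The siL2 call ended without each of siL2 replicate 1, siL2 replicate 2, siControl replicate 1 and siControl replicate 2 (adjusted p = 0.129, 0.0901, 0.207 and 0.054), by DESeq2 (adjusted p = 0.146) and by limma-voom (adjusted p = 0.0542), while the difference between the siRNAs passed without every library in turn.

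Of the other effectors, IFI35 and SP100 rose with siL2. IFI35, a cytosolic partner of the interferon-induced protein NMI, had 12.8 and 13.3 CPM with siL1, 21.3 and 23.8 CPM with siL2, and 12.4 and 14.5 CPM with siControl. The siL1 libraries lay within the siControl range. Relative to siControl, the log2 fold change was −0.04 ± 0.106 for siL1 (adjusted p = 0.778) and 0.74 ± 0.0989 for siL2 (adjusted p = 5.39e-05), and siL1 over siL2 was −0.78 (adjusted p = 3.52e-05). SP100, a component of nuclear bodies, had −0.05 ± 0.0524 with siL1 (adjusted p = 0.454) and 0.31 ± 0.0515 with siL2 (adjusted p = 0.000285).

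LGALS3BP, a secreted galectin-binding glycoprotein, and IFI6, an anti-apoptotic membrane protein, were higher with both siRNAs and more so with siL1. LGALS3BP had 359 and 373 CPM with siL1, 302 and 296 CPM with siL2, and 264 and 260 CPM with siControl. IFI6 had 13.4 and 12.9 CPM with siL1, 9.68 and 9.01 CPM with siL2, and 7.17 and 7.83 CPM with siControl. For both genes the 3 groups did not overlap.

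The log2 fold change of LGALS3BP was 0.49 ± 0.0373 for siL1 (adjusted p = 4e-07) and 0.19 ± 0.0374 for siL2 (adjusted p = 0.00123), and siL1 over siL2 was 0.30 (adjusted p = 2.95e-05). IFI6 had 0.81 ± 0.108 for siL1 (adjusted p = 4.57e-05) and 0.31 ± 0.112 for siL2 (adjusted p = 0.0359), and siL1 over siL2 was 0.50 (adjusted p = 0.00149). The siL2 call of IFI6 ended without siL2 replicate 1 or 2 or siControl replicate 1 or 2 (adjusted p = 0.178, 0.0561, 0.176 and 0.0551), and by DESeq2 (adjusted p = 0.143). TRIM21, a ubiquitin ligase that binds antibody inside cells, rose with siL1 (0.38 ± 0.121, adjusted p = 0.0189), a call that ended without siL1 replicate 1 or siControl replicate 2 (adjusted p = 0.114 and 0.228), and had −0.17 ± 0.125 with siL2 (adjusted p = 0.285, or 0.0315 without siControl replicate 2).

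Set side by side, 11 of the 43 tested members passed as higher in each comparison with siControl: IFNAR1, IRF1, IFIT1, ISG20, GBP1, GBP2, SAMD9, SAMD9L, IFI6, IFI44 and LGALS3BP. Of all tested genes, 13.1% did so. Both comparisons use the same siControl libraries, so a gene that is low there by chance is raised in both, and the count is not independent evidence from each siRNA. Another 7 passed the test as higher with siL1 and not with siL2 (DHX58, ISG15, UBE2L6, MX1, IFITM3, TRIM21 and XAF1), and 7 with siL2 and not with siL1 (STAT2, IRF7, IRF9, IFIT3, SP100, IFI35 and IFI44L). Whether a member responded differently is answered by the direct comparison of siL1 over siL2, in which 13 members were higher and 12 lower, 58.1% of those tested. Over all tested genes, 46.8% differed. The median difference of the tested members was 0.04 on the log2 scale. Of the 25 calls, 16 were kept when each library was left out in turn. The plot of these differences shows members on both sides of 0 among the effectors.

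**Figure D3:**
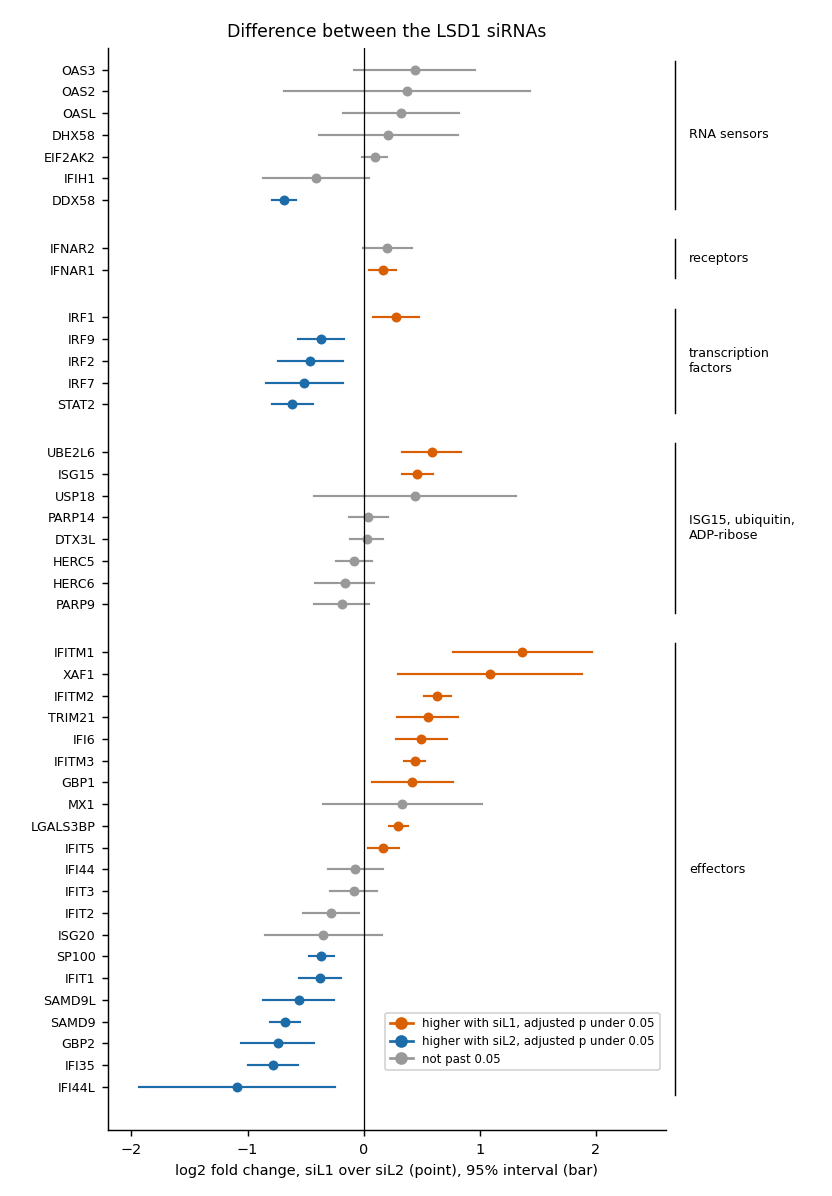
The log2 fold change of siL1 over siL2 (horizontal axis) is plotted for the 43 tested members by role. Points are edgeR estimates and bars 95% intervals, with orange for members higher with siL1, blue for members higher with siL2 and grey for those not past an adjusted p of 0.05. All 5 transcription factors are coloured, 4 of them left of 0, while 1 of 7 RNA sensors is. The calls of IRF1, IRF2, IRF7 and IRF9 depended on single libraries.

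Genes of the wider pathway changed in both directions. Of 112 further pathway genes, shown by list in the plot of pathway changes, 111 were in the table and 89 were tested, with 22 higher and 18 lower with siL1, 24 higher and 20 lower with siL2, and 19 higher and 17 lower in siL1 over siL2. The shares called, 44.9% with siL1, 49.4% with siL2 and 40.4% between them, lay near the backgrounds given above. Their median log2 fold change was 0.04 with siL1 and 0.00 with siL2. Of 7 JAK-STAT signalling genes, all tested, 3 rose and 1 fell with each siRNA (42.9% and 14.3%). Over all tested genes, 24.7% rose and 25.7% fell with siL1, and 22.6% rose and 23.3% fell with siL2. STAT5B fell with siL2 (−0.58 ± 0.0746, adjusted p = 4.22e-05) and had −0.17 ± 0.0732 with siL1 (adjusted p = 0.0715, or 0.0117 without siL1 replicate 1, 0.0213 with no filter and 0.000607 under a replicate block). Of 10 negative regulators, 3 fell with each siRNA (30%), near the 25.7% and 23.3% of all tested genes that fell. Of these 3, PTPN2, a phosphatase of JAK and STAT proteins, had −0.37 with siL1 and −0.48 with siL2 (adjusted p = 0.000706 and 9.35e-05), TRIM28 had −0.16 with each (adjusted p = 0.0017 and 0.00211), and PIAS4 had −0.30 and −0.23 (adjusted p = 0.00575 and 0.0215). The PIAS4 calls ended without siL1 replicate 1 for siL1 (adjusted p = 0.0542), and without siL2 replicate 1, siL2 replicate 2 or siControl replicate 1 for siL2 (adjusted p = 0.105, 0.0521 and 0.117), where DESeq2 also gave no call (adjusted p = 0.106).

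Of 17 tested sensing adaptors and kinases, 7 rose and 4 fell with siL1 (41.2% and 23.5%), and 5 rose and 3 fell with siL2 (29.4% and 17.6%). Over all tested genes, 24.7% rose and 25.7% fell with siL1, and 22.6% rose and 23.3% fell with siL2. MAVS, the mitochondrial adaptor through which RIG-I signals, had 127 and 116 CPM with siL1, 178 and 172 CPM with siL2, and 121 and 116 CPM with siControl. Both siL2 libraries were above all 4 others. In log2 terms the change was 0.04 ± 0.0498 for siL1 (adjusted p = 0.574) and 0.56 ± 0.0489 for siL2 (adjusted p = 1.5e-06), and siL1 over siL2 was −0.52 (adjusted p = 2.86e-06).

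SAMHD1, a nucleotide hydrolase that limits retroviruses, had 114 and 120 CPM with siL1, 72.6 and 68 CPM with siL2, and 56.4 and 55.2 CPM with siControl. The 3 groups were apart, with siL1 the highest. This gave a log2 fold change of 1.07 ± 0.0529 for siL1 (adjusted p = 8.99e-09) and 0.33 ± 0.0543 for siL2 (adjusted p = 0.000281), and siL1 over siL2 was 0.74 (adjusted p = 1.92e-07). TRAF3, an adaptor for interferon induction, fell with both, with log2 fold changes of −0.23 ± 0.0442 for siL1 and −0.49 ± 0.0445 for siL2 (adjusted p = 0.000774 and 2.21e-06).

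Among 44 tested further interferon-stimulated genes, 10 rose and 5 fell with siL1 (22.7% and 11.4%), and 14 rose and 10 fell with siL2 (31.8% and 22.7%). The shares of all tested genes that rose and fell were 24.7% and 25.7% with siL1, and 22.6% and 23.3% with siL2. The median log2 fold changes of the 44 genes were 0.06 and 0.03. B2M, the light chain of MHC class I, rose by 0.37 ± 0.0348 with siL1 and 0.34 ± 0.0348 with siL2 (adjusted p = 2.6e-06 and 5.87e-06), and GBP3 by 0.38 ± 0.0633 and 0.57 ± 0.0622 (adjusted p = 0.0003 and 1.06e-05). Of 10 genes of small-RNA processing, 2 rose and 5 fell with siL1 (20% and 50%), and 2 rose and 3 fell with siL2 (20% and 30%). Again, the shares over all tested genes were 24.7% and 25.7% with siL1, and 22.6% and 23.3% with siL2. DICER1, which cuts double-stranded RNA and microRNA precursors, had 247 and 277 CPM with siL1, 288 and 295 CPM with siL2, and 170 and 155 CPM with siControl. It rose by 0.69 ± 0.0584 with siL1 and 0.83 ± 0.0582 with siL2 (adjusted p = 9.7e-07 and 1.86e-07), and siL1 over siL2 was −0.14 (adjusted p = 0.0519, or 0.0066, 0.0308 and 0.0308 without siL1 replicate 2, siControl replicate 1 and siControl replicate 2, and 8.53e-05 under a replicate block). DROSHA and XPO5, which cut and export microRNA precursors, each fell by 0.48 with siL1 (adjusted p = 4.82e-06 and 3.28e-07), and by 0.33 and 0.32 with siL2 (adjusted p = 0.000105 and 1.38e-05).

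**Figure D4:**
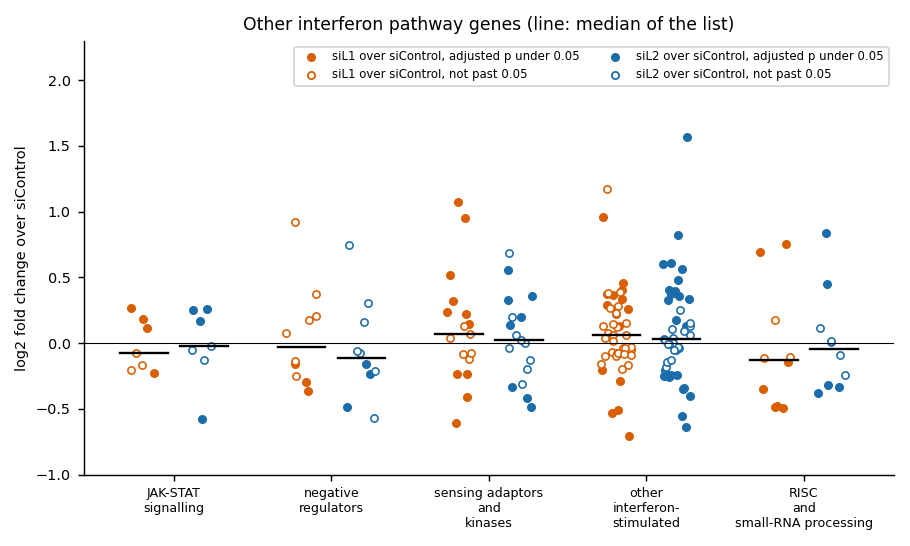
The log2 fold change over siControl (vertical axis) is plotted for tested pathway genes outside the 50 members in 5 lists, with siL1 in orange and siL2 in blue. Each point is a gene, filled where the adjusted p was under 0.05, black lines are list medians, and horizontal spread within a list only separates points. The medians lie near 0 for every list, and SAMHD1 is the highest siL1 point among the sensing adaptors and kinases.

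Some markers of other cell types rose with the siRNAs, and others were absent or too low to be tested. The 8 fibroblast and endothelial markers summed to 11.4 and 12.5 CPM with siL1, 6.91 and 6.25 CPM with siL2, and 2.81 and 3.17 CPM with siControl, and DCN and LUM, which define fibroblasts, were at 0 in all 6 libraries. Of the 8, 4 were tested, and DCN, LUM, PDGFRA and VWF were too low. PDGFRB, KDR and PECAM1 rose with siL1 (75%), and PDGFRB and KDR with siL2 (50%). Over all tested genes, 24.7% rose with siL1 and 22.6% with siL2. PECAM1 rested on 3 to 17 counts a library, and CDH5 did not pass with either siRNA. The PDGFRB calls and the siL1 call of KDR were kept when each library was left out. PDGFRB, a growth factor receptor, carried most of the rise in the sum. Its log2 fold change was 3.11 ± 0.208 for siL1 and 2.16 ± 0.231 for siL2 (adjusted p = 1.21e-07 and 8.57e-06). The part of these markers in the changes of the interferon response genes was not tested.

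The 3′ UTRs of the members were compared with the rest for TACATTT and ACATTTA, heptamers that an earlier scan of these same data had picked. In GENCODE v29, 14 of the 43 tested members held at least 1 of them (32.6%), against 34.9% of 12227 tested genes with a 3′ UTR. Among members that rose, 7 of 19 held one with siL1 (36.8%) and 9 of 18 with siL2 (50%), against 44.7% and 46.0% of all genes that rose. The median 3′ UTR length was 702 bases for members that rose with siL1 and 919.5 bases with siL2. For all genes that rose it was 1633 bases with each siRNA. A longer 3′ UTR is more likely to hold a given heptamer, and the shares were not adjusted for length.

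In the authors' deposited table, 49 members had an adjusted p-value. At the same threshold, 13 of them were higher and 1 lower with siL1, and 14 were higher and 2 lower with siL2. Over all genes with such a value, 4989 of 17202 were called in either direction with siL1, and 4504 of 17161 with siL2. The authors' deposited table gave IFIT1 a linear fold change of 1.35 with siL1 and 1.75 with siL2, and DDX58 one of 0.666 with siL1.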

How the data were processed

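Total RNA of 6 MDA-MB231 libraries, 2 per group by their titles, was sequenced. Per the submitters' processing notes, TopHat 1.3.3, HTSeq and DESeq were used with hg19; which settings, annotation release and strand mode were used is not given in the sources used here. The authors deposited raw counts per gene symbol, a linear fold change (ratio) of each LSD1 siRNA over the control, and an adjusted p-value per comparison. All tests start from the deposited counts, and every sample column was mapped by its title.

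Counts were analysed with R 4.3.3 and edgeR 4.0.16 (limma 3.58.1): filterByExpr by group (13322 of 23368 genes tested), TMM scaling, and glmQLFit on the 6 libraries together, with no covariate beside group (3 residual degrees of freedom, common biological coefficient of variation 3.72%), then glmQLFTest with Benjamini-Hochberg adjustment at 0.05. CPM used unscaled library totals. SEs are of the log2 fold change. Replicates differed beyond counting noise, so none was merged. The test was tried on simulated data.

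The members, subgroups, pathway and marker lists and tests were chosen with earlier results of these data known. Full values are given for KDM1A, receptors, transcription factors and, in other roles, the members with the largest called changes (up to 4 per siRNA against siControl, up to 3 between siRNAs) or opposite calls. IFIT1, IFIT3, SAMD9, IFITM3, IFI44, IFI35, SP100, LGALS3BP, IFI6, TRIM21, OASL and OAS3 were described after their values were seen. In the pathway lists the genes named were among the 3 with the smallest p-values; some items are not reported here. Promoters came from RefSeq GRCh38.p14 and 3′ UTRs from GENCODE v29, joined by symbol, while the counts were made on hg19. The alternatives tried were 2 other scalings, 2 other filters, DESeq2 1.42.0, limma-voom, the replicate number as a block, only the groups compared, and leaving out each library. Figures used Python 3.11.15 with matplotlib 3.10.9.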

Additional observations from a re-analysis of the deposited data

Results flagged for a closer look

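IFITM2 was the 1 member whose siL1 and siL2 changes were both past the threshold in opposite directions: 0.36 with siL1 and −0.28 with siL2 on the log2 scale against siControl. The difference of siL1 over siL2 was itself tested and was 0.63 (edgeR, adjusted p = 1.02e-06), and both its direction and its call were kept under all 14 alternatives. Reads of the near-identical IFITM genes may have been divided between them, and the part of this in the result was not tested. Groups of 2 libraries are too small to mark single libraries as outlying.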

How the results depend on the processing

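Of 46 calls on members described by the naming rule, 21 kept direction and call under every one of the 14 alternatives. Counts of members higher ranged from 15 to 20 with siL1 and from 13 to 19 with siL2 when each library was left out, and from 9 to 13 in siL1 over siL2, where 9 to 13 were lower. Members lower against siControl numbered 4 with each siRNA, 2 with each by DESeq2, 2 to 4 with siL1 and 2 to 5 with siL2 without 1 library, and 8 with siL2 with the replicate number as a block. DESeq2 called 8 members higher in siL1 over siL2, against 13. Sign changes were looked for only among the members described by the naming rule, so other members may also change sign. With libraries left out, 5 values of the members under that rule that passed no test changed sign: IFNAR2 with siL1 (−0.063 to 0.080), IRF2 with siL2 (−0.139 to 0.040), IRF7 with siL1 (−0.243 to 0.066), IRF9 with siL1 (−0.034 to 0.144) and DTX3L in siL1 over siL2 (−0.0088 to 0.058). The cause was not tested. The replicate numbers are not labelled as shared batches; deviations of same-numbered libraries correlated at 0.265, 0.229 and 0.310 over genes, and the block raised the genes called to 8036 with siL1, 7610 with siL2 and 7700 between them, against 6712, 6106 and 6240. On members the block ended 0 calls and added 14, of which 4 were with siL1 (OASL, STAT2, IFIT3 and IFITM1), 6 with siL2 (DDX58, EIF2AK2, OAS3, PARP14, IFIT2 and IFITM3) and 4 between the siRNAs (IFIH1, OASL, IFNAR2 and IFIT2). Upper quartile scaling gave 3510 genes higher and 3114 lower with siL1, against 3289 and 3423. With 2 libraries a group and under 30 counts, as for MX1, DHX58, XAF1 and IFI44L, depth limits precision.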
